A study of Mus musculus with 6 samples.

Results

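The enzymes of serine, proline and one-carbon synthesis were followed at the RNA level in bone-marrow-derived macrophages (BMDMs) given excess salt. The group was a named list of 10 genes (Phgdh, Psat1, Psph, Shmt1, Shmt2, Mthfd1, Mthfd1l, Mthfd2, Aldh1l2 and Pycr1), taken by symbol. All 10 were found among the 57010 genes of the count table, and all 10 were among the 15903 genes with a total of at least 10 counts that were tested. The list was selected on the same comparison of NaCl with control that is described here, so the differences of these 10 genes are given as a description, without a test of their own.

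Marrow came from 3 Cx3cr1GFP mice on a C57BL/6J background, a line in which a GFP cassette sits in the Cx3cr1 gene, and both groups therefore carried that allele. The cells were grown with M-CSF at 10 ng/ml. From each mouse there was 1 library of unstimulated control cells and 1 library of cells exposed to 62 mM excess NaCl for 24 h, and only adherent cells, lifted with EDTA, were sequenced. RPMI is the culture medium in the written methods, whereas the study's drawn scheme shows DMEM in both arms, and the amino acid supply in the medium was not analysed here. Polyadenylated RNA was sequenced without strand information, with no arm for osmolarity alone in these data.

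Library totals ran from 8520433 to 20123570 counts in control and from 4088065 to 11610020 in NaCl, and the NaCl library of mouse 3 was the shallowest. All 9 macrophage markers were measured, with Csf1r, Adgre1 and Cd68 each at a mean above that of every marker of another cell type. Fcgr1 and Mertk, at control means of 94.7 and 93.4 CPM, lay below Ccr2 (130.9), S100a9 (117.4) and Ngp (103.8), which mark monocytes or neutrophils. The 9 macrophage markers summed to 15311 to 16646 CPM in control and 23977 to 31642 CPM in NaCl. Most of that sum was Lyz2, at a mean of 9817 CPM in control and 19148 in NaCl. The 9 had a median log2 difference of -0.06, with Lyz2 and Cd14 called higher without the block, and Csf1r also higher and Mertk lower with it. Markers of neutrophils, monocytes, dendritic cells, B cells, erythroid and stromal cells (30 of 40 measured) summed to 530.4 to 730.1 CPM in control and 461.4 to 605.1 CPM in NaCl. These 30 had a median log2 difference of -0.36 without the block, with 23 below 0 and 7 above. With the mouse as a term of the fit, 27 were below 0 and 3 above. In that fit 2 of the 30 were called lower, where 4.3% of all genes were. These were Ngp and Mpo, which mark neutrophils and their precursors. The part of these 30 markers in the results below was not tested. In bulk RNA, fewer cells of a type and less RNA per cell cannot be told apart.

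As background, cells make serine from a glycolytic intermediate in a chain of reactions run by PHGDH, PSAT1 and PSPH. Serine hydroxymethyltransferases then pass a carbon unit from serine to tetrahydrofolate and release glycine. The mitochondrial branch (SHMT2, MTHFD2, MTHFD1L) turns this unit into formate, ALDH1L2 can oxidise it to carbon dioxide, and the cytosolic branch (SHMT1, MTHFD1) uses such units for purines, thymidylate and methionine. PYCR1 carries out the last step of mitochondrial proline synthesis. In macrophages these routes are known for supplying glutathione, nucleotides and methyl donors, and several of the genes are textbook targets of the transcription factor ATF4.

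A few of the genes serve to show what lies upstream, since they stand for the first serine enzyme, the proline enzyme and the enzyme whose level went the other way. The 250 bases before the start of transcription are printed 5' to 3' on the strand of the gene, from RefSeq on GRCm38.p6: Phgdh is at chr3:98339970-98340219 on the minus strand, Pycr1 at chr11:120643749-120643998 on the minus strand and Mthfd1 at chr12:76254982-76255231 on the plus strand. Capitals mark 2 motifs on either strand, CCAAT, printed as its reverse complement where it lies on the other strand, and TGATGNAA, the core of the CARE element to which ATF4 binds.
Phgdh: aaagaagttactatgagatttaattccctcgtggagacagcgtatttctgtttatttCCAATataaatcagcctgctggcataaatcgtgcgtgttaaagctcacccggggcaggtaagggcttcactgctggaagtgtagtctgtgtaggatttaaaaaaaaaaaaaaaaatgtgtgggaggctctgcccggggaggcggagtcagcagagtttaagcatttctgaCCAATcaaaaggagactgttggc
Pycr1: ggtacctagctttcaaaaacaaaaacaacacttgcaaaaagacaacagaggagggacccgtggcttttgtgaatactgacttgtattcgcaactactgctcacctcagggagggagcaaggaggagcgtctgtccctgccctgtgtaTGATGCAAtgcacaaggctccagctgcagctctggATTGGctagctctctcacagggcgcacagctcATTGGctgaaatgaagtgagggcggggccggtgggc
Mthfd1: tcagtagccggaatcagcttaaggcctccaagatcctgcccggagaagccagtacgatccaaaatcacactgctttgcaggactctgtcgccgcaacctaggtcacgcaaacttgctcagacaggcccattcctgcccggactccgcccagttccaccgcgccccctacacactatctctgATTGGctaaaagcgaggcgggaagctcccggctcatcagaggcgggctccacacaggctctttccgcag
RefSeq windows of this length were at hand for 9 of the 10 genes. Of these 9, 7 held CCAAT (Phgdh, Psat1, Psph, Shmt1, Mthfd1, Mthfd2 and Pycr1), against 33.8% of 32851 windows over all genes, and the motifs did not overlap one another in the printed windows. TGATGNAA was in the window of 1 of the 9, Pycr1, 103 bases before the start, against 3.45% of all windows. The E-box CACGTG, found in 6.02% of windows, and the tonicity element TonE, found in 4.31%, were in none of the 9. A match in these letters is a description of sequence and not a binding site.

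The genes of the serine chain were lower in NaCl than in control. Phgdh, whose enzyme commits the glycolytic intermediate to serine (chromosome 3, ENSMUSG00000053398.12), had 249, 543 and 860 counts in the control libraries of mouse 1, 2 and 3, and 108, 138 and 34 counts in the NaCl libraries. Scaled by library size with TMM factors, these were 28.3, 49.2 and 43.4 CPM (counts scaled to the library total) in control and 12.1, 12.5 and 8.14 CPM in NaCl. Every NaCl library was below every control library. The mean was 40.3 ± 10.8 CPM (SD, n = 3) in control and 10.9 ± 2.40 CPM (SD, n = 3) in NaCl, a log2 difference of -1.86 ± 0.24 (SE) in edgeR, or 3.62-fold lower. Within single mice the log2 difference was -1.22, -1.96 and -2.39.

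Psat1, the aminotransferase of the second step (chromosome 19, ENSMUSG00000024640.10), had 104.4, 166.7 and 167.1 CPM in control and 68.8, 96.4 and 96.5 CPM in NaCl. These groups did not overlap either, and the log2 difference was -0.75 ± 0.21 (SE), with -0.60, -0.79 and -0.79 in the single mice. Psph, the phosphatase that releases serine (chromosome 5, ENSMUSG00000029446.15), had 14.2, 23.6 and 24.5 CPM in control and 10.1, 13.2 and 12.2 CPM in NaCl. Its highest NaCl value lay below its lowest control value, and its log2 difference was -0.82 ± 0.23 (SE).

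**Figure D1:**
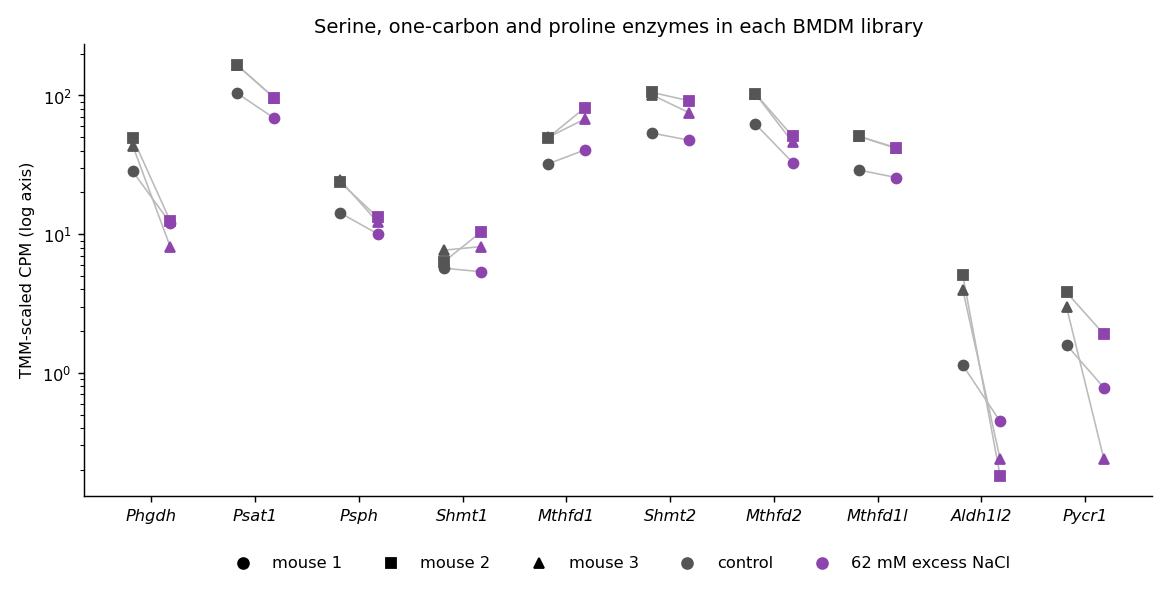
TMM-scaled CPM of each of the 10 enzymes (log axis) in the 3 control and 3 NaCl libraries, with grey lines joining the libraries of a mouse and marker shapes giving the mouse. Phgdh, Psat1, Psph, Mthfd2 and Aldh1l2 have all NaCl points below all control points, Mthfd1 lines go up in all 3 mice, and mouse 1 has the lowest control point of every gene.

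In the mitochondrial folate branch the genes did not move alike. Mthfd2, the dehydrogenase and cyclohydrolase of mitochondria (chromosome 6, ENSMUSG00000005667.9), had 548, 1139 and 2042 counts in control and 294, 560 and 192 counts in NaCl. In CPM this was 62.3, 103.2 and 103.0 in control and 32.9, 50.8 and 46.0 in NaCl, without overlap. The log2 difference was -1.05 ± 0.23 (SE), or 2.08-fold lower, and the single mice gave -0.92, -1.02 and -1.16, the closest agreement between mice among the genes that were lower by more than 1 on the log2 scale.

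Shmt2, which takes the carbon unit from serine in mitochondria (chromosome 10, ENSMUSG00000025403.6), had 53.7, 105.4 and 101.3 CPM in control and 47.6, 91.6 and 75.2 CPM in NaCl. The groups overlapped because mouse 1 was low in both, and the log2 difference was -0.28 ± 0.28 (SE). Mthfd1l, the synthetase that releases formate (chromosome 10, ENSMUSG00000040675.18), was also within the spread of the libraries, with 29.0, 50.6 and 50.8 CPM in control, 25.6, 41.5 and 41.9 CPM in NaCl and a log2 difference of -0.27 ± 0.25 (SE). For both genes NaCl was below control in 3 of 3 mice, by -0.17 to -0.43 for Shmt2 and by -0.18 to -0.28 for Mthfd1l. Shmt2 and Mthfd1l thus sat beside Mthfd2 in the same branch with smaller differences.

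Aldh1l2, the mitochondrial formyltetrahydrofolate dehydrogenase (chromosome 10, ENSMUSG00000020256.15), was a low-count gene with the most negative value of the 10. It had 10, 56 and 79 counts in control and 4, 2 and 1 counts in NaCl, which is 1.14, 5.07 and 3.99 CPM against 0.447, 0.181 and 0.240 CPM. All NaCl libraries were below all control libraries, but mouse 1 was low in control too, and its log2 difference of -1.06 compares with -3.83 and -3.29 in the other mice. The fitted log2 difference was -3.53 ± 0.67 (SE), and with the block it was -4.49 without mouse 1 and -2.44 without mouse 2. Summed over libraries and scaled by depth, the ratio of NaCl to control was 0.0793 with an exact 95% interval of 0.0313 to 0.168, which covers counting error only.

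Mthfd1 and Shmt1, the members of the cytosolic folate branch, were not lower. Mthfd1, the trifunctional enzyme of the cytosol (chromosome 12, ENSMUSG00000021048.8), had 32.1, 49.4 and 49.8 CPM in control and 40.6, 81.9 and 67.8 CPM in NaCl. NaCl was above control in 3 of 3 mice, by 0.34, 0.73 and 0.44 on the log2 scale, while the groups overlapped because of the low values of mouse 1. The log2 difference was 0.53 ± 0.26 (SE). Shmt1, the cytosolic counterpart of Shmt2 (chromosome 11, ENSMUSG00000020534.15), had 5.69, 6.34 and 7.67 CPM in control and 5.36, 10.4 and 8.14 CPM in NaCl. Its log2 difference of 0.27 ± 0.27 (SE) was 0.70 in mouse 2, -0.08 in mouse 1 and 0.09 in mouse 3.

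Pycr1, which reduces the last proline precursor (chromosome 11, ENSMUSG00000025140.16), had 14, 42 and 59 counts in control and 7, 21 and 1 counts in NaCl. Its 1.59, 3.80 and 2.98 CPM in control and 0.782, 1.90 and 0.240 CPM in NaCl overlapped, since NaCl of mouse 2 exceeded control of mouse 1. The log2 difference was -1.32 ± 0.52 (SE), and it was -0.88 and -0.93 in mouse 1 and mouse 2 but -2.89 in mouse 3, where the shallow NaCl library held 1 count. Without the NaCl library of mouse 2 the fitted difference was -2.23. The ratio of summed counts was 0.414, with an exact 95% counting interval of 0.266 to 0.627.

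Across the 10 genes, 8 had a negative and 2 a positive log2 difference, with a median of -0.78 beside -0.01 over all genes tested. In edgeR's test without a term for the mouse, 1 of the 10 was called lower at an adjusted p under 0.05 (Phgdh), where 0.176% of all genes were, and 0 were called higher, where 0.478% were. At an unadjusted p under 0.05 the same fit had 6 of the 10 lower and 0 higher, where 6.01% and 6.63% of all genes were. DESeq2 without the block called 4 lower and 0 higher, where it called 0.975% and 1.54% of all genes. With the mouse as a block, as the labels pair the libraries, 6 were called lower (Phgdh, Psat1, Psph, Mthfd2, Aldh1l2 and Pycr1), where 4.3% of all genes were, and 1 higher (Mthfd1), where 4.6% were. The list was chosen on this contrast, so nothing is read from these shares. The 5 genes without overlap between the groups compare with 10.1% of all genes in that direction, and 0 of 10 lay wholly above control, against 8.92% of all genes.

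The calls without the block depended on single libraries. Phgdh was not called when control 2, control 3, NaCl 2 or NaCl 3 was left out, so that 0 of the 10 were called lower by edgeR, and of all genes tested 1, 1, 0 and 0 were. At an unadjusted p under 0.05, 5 or 6 of the 10 were lower in these fits, against 3.30% to 5.60% of all genes. Without control 1, 3 were called lower (Phgdh, Mthfd2 and Aldh1l2), where 25 of 15437 genes were. With the block and mouse 1, 2 or 3 left out, 6, 6 and 5 of the 10 were called lower. Of all genes, 417 of 14949, 661 of 14827 and 585 of 14863 were. Pycr1 was the gene lost without mouse 3.

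**Figure D2:**
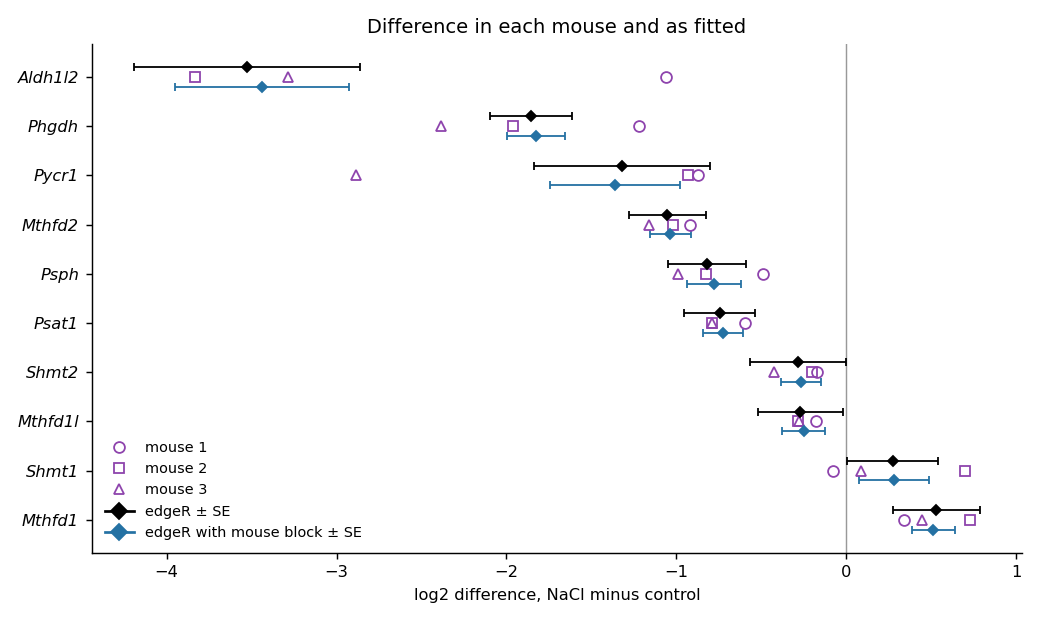
Log2 difference between NaCl and control for each enzyme (x axis), as open symbols for each mouse and as diamonds with SE bars for the edgeR fits without and with the mouse as a block. The fitted value runs from -3.53 for Aldh1l2 to 0.53 for Mthfd1, mouse 1 gives the value nearest 0 for each of the 10, and the bars are shorter with the block.

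The control cells of mouse 1 held less of these RNAs than those of the other mice. Mouse 1 was the lowest control library for 10 of the 10 genes, whereas it was the lowest for 40.8% of the 15605 genes with an untied order. In NaCl it was lowest for 7 of the 10, against 30.9% of genes, and the exceptions were Phgdh, Aldh1l2 and Pycr1. The median log2 distance of mouse 1 from the mean of the other mice was -0.74 in control and -0.52 in NaCl over the 10 genes, and between 0.00 and 0.03 in size over all genes tested. For the cell division genes the same distance was -0.39 in control and -0.64 in NaCl, so another gene list was also low in this mouse. The difference between NaCl and control was also closest to 0 in mouse 1 for 10 of the 10 genes, and the share over all genes was not computed. For Shmt1 this was by little, at -0.08 in mouse 1 and 0.09 in mouse 3. For Shmt1, Shmt2, Mthfd1 and Mthfd1l the distance between mouse 1 and the others, in control and in NaCl, exceeded in size the difference between NaCl and control.

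Ratios between enzymes of linked steps were taken per length of the longest transcript in each library, which cancels library size. Mthfd2 over Mthfd1 had a log2 ratio of 1.59, 1.70 and 1.68 in control and 0.33, -0.05 and 0.08 in NaCl, a move from 3.15 to 1.09 on the linear scale. The mitochondrial gene was thus above the cytosolic gene in each control library and near equal to it in each NaCl library. Mthfd1l over Mthfd1 went from 0.863 to 0.513, and Phgdh over Psat1 from 0.381 to 0.174. Psph over Psat1 stayed at 0.130 in control and 0.126 in NaCl, with overlapping libraries. Shmt2 over Shmt1 was 15.5 in control and 10.9 in NaCl, where the lowest control library (log2 ratio 3.52) and the highest NaCl library (3.50) nearly met.

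**Figure D3:**
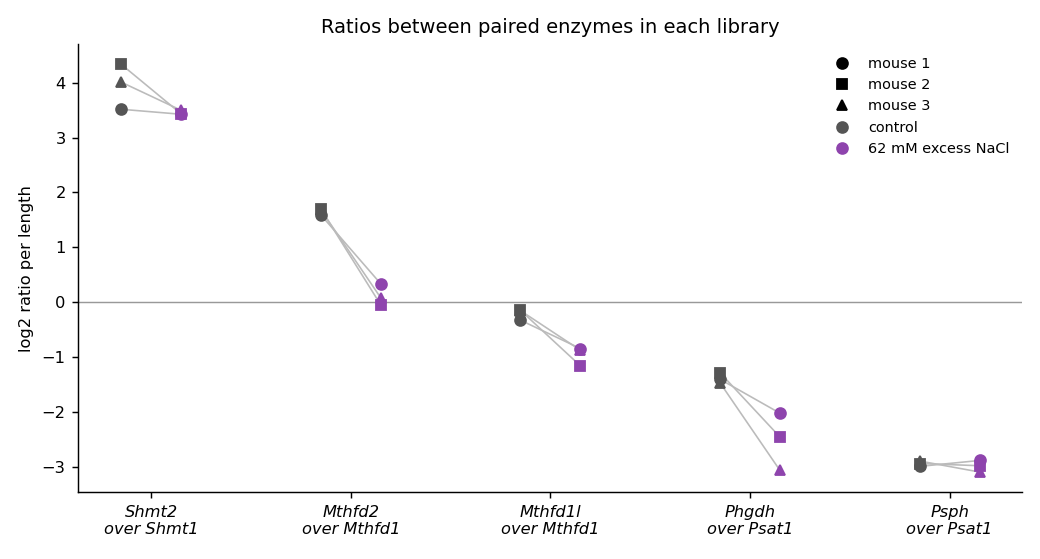
Log2 ratio of paired enzymes per transcript length (y axis) in each library, grey for control and purple for NaCl, with lines joining the libraries of a mouse. The ratio of Mthfd2 to Mthfd1 goes from between 1.59 and 1.70 in control to between -0.05 and 0.33 in NaCl, while the ratio of Psph to Psat1 overlaps between the groups.

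Per kilobase of the longest transcript, the order of levels in control was Psat1 (55.8 CPM per kb), Mthfd2 (42.9), Shmt2 (37.9), Phgdh (21.3), Mthfd1 (13.5), Mthfd1l (11.8), Psph (7.22), Shmt1 (2.30), Pycr1 (0.958) and Aldh1l2 (0.564). Neighbours in this order overlapped in the range of their 3 libraries, apart from Psph over Shmt1 and Shmt1 over Pycr1. In NaCl, Psat1 still had the highest mean at 33.3 ± 6.10 CPM per kb (SD, n = 3) and Shmt2 came next at 31.2 ± 9.72. Phgdh moved from rank 4 to rank 6, at 5.76 ± 1.27, and Mthfd1 from rank 5 to rank 4, at 19.6 ± 6.48. With the mean transcript length in place of the longest, Psph and Mthfd1l changed places in control and the other ranks were as before.

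**Figure D4:**
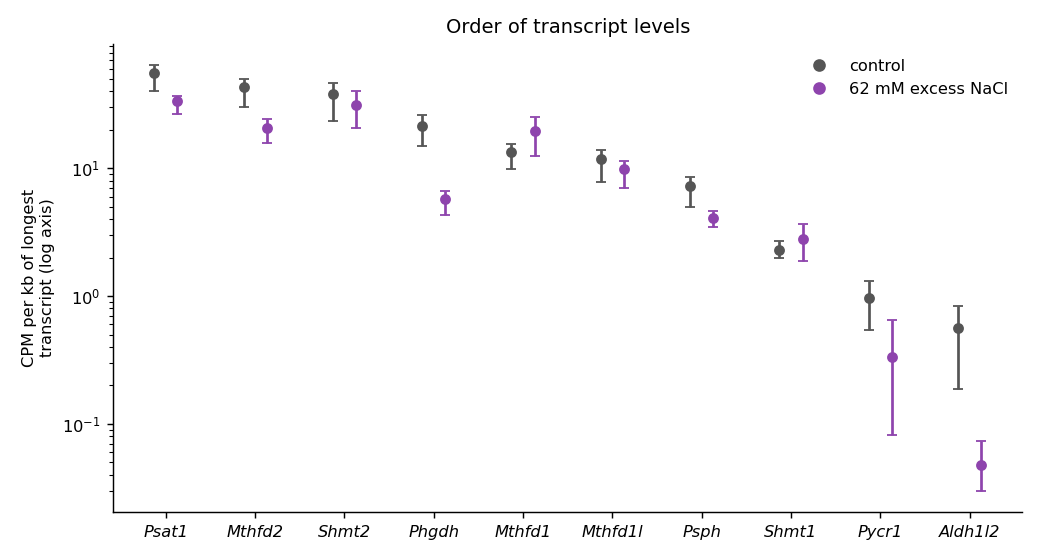
CPM per kilobase of the longest transcript (log axis), with points for the mean and bars for the range of the 3 libraries of control (grey) and NaCl (purple), ordered by the control mean. The levels span from 55.8 for Psat1 to 0.564 for Aldh1l2 in control, and Phgdh falls from rank 4 to rank 6.

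Some reads of these genes could not be assigned with certainty. Of the distinct 75-base windows of Phgdh transcripts, 35.8% also occurred in 13 other genes, 32.2% in the pseudogene Gm7901 alone, and reads that fit several places equally are left out of counts of this kind. Gm7901 itself had 3 counts over all 6 libraries, so summing it with Phgdh, which gave a log2 difference of -1.85, could change little. That sum does not bring back reads left out of both genes. Psph overlaps Cct6a on the opposite strand over 10.4% of its exonic bases, Aldh1l2 overlaps D10Wsu102e over 14.1% and Shmt1 overlaps Smcr8 over 4.74%. The libraries hold no strand information, so reads in those stretches cannot be told apart.

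The other listed genes of the same pathways are given as a description only. They are what remained after the 10 were chosen on this comparison, and the lists were written with earlier results of these data known. Of 71 listed genes in serine and glycine, folate, methionine, proline and purine metabolism, 59 were tested, with a median log2 difference of -0.01. The 12 others had at most 9 counts over all libraries, among them Cbs, which joins serine to homocysteine, and Sds, which breaks serine down. Without the block, 1 of the 59 was called lower and 1 higher, where 0.176% and 0.478% of all genes were, and with the block 4 were called lower and 6 higher, where 4.3% and 4.6% of all genes were.

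Among serine and glycine genes (14 tested), Slc1a4, a transporter of serine, alanine and other neutral amino acids, fell by 2.20 on the log2 scale, from 5.74 ± 1.56 to 1.27 ± 0.16 CPM (SD, n = 3 each; adjusted p = 0.023 in edgeR without the block). It was lower in 3 of 3 mice without overlap of the groups, and the adjusted p was between 0.091 and 0.18 when control 2, control 3, NaCl 2 or NaCl 3 was left out. Slc38a2, a transporter of small neutral amino acids including proline and serine, rose with the block by 0.59 ± 0.13 (SE; edgeR adjusted p = 0.0026), and without mouse 1 the log2 difference was 0.45 but was not called (edgeR adjusted p = 0.19). Gldc, which opens the glycine cleavage reaction, held 0 to 7 counts per library and had a log2 difference of -0.08 ± 0.87 (SE), which is not informative at this depth.

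Among folate genes (17 tested), the folate receptor Folr1 rose from 4.68 ± 0.40 to 13.1 ± 2.63 CPM (SD, n = 3 each), a log2 difference of 1.49 ± 0.22 (SE; adjusted p = 0.024 in edgeR without the block). It was higher in 3 of 3 mice without overlap, and the adjusted p was between 0.087 and 0.18 without control 2, control 3, NaCl 2 or NaCl 3. Folr2, the folate receptor of tissue macrophages, rose with the block by 0.75 ± 0.12 (SE; edgeR adjusted p = 9.7e-05), from 158.8, 190.0 and 138.3 CPM to 243.3, 366.0 and 224.0 CPM. Aldh1l1, the cytosolic counterpart of Aldh1l2, fell with the block by 0.71 ± 0.16 (SE; edgeR adjusted p = 0.0049), and without mouse 1 the log2 difference was -0.67 but was not called (edgeR adjusted p = 0.084). Mthfd2l, the paralog of Mthfd2, had a log2 difference of -0.50 ± 0.24 (SE) with the block and Tyms, which makes thymidylate, 0.36 ± 0.13, and neither passed the threshold.

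Of 8 proline genes tested, 1 was called, with the block. Aldh18a1, which makes the precursor that the PYCR enzymes act on, had 38.7, 61.2 and 59.5 CPM in control and 25.5, 31.0 and 27.5 CPM in NaCl, and it fell with the block by 0.90 ± 0.13 (SE; edgeR adjusted p = 5.0e-05, and 0.072 without the block). Pycrl, now named Pycr3, a paralog of Pycr1, had a log2 difference of 0.13 ± 0.24 (SE) and did not pass in either fit.

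Beyond these, Ahcy, which hydrolyses S-adenosylhomocysteine, rose with the block by 0.61 ± 0.16 (SE; edgeR adjusted p = 0.013), as 1 of 7 methionine and transsulfuration genes tested. Of 13 purine genes, Impdh2 and Pfas rose with the block by 0.43 ± 0.13 and 0.41 ± 0.13 (SE), and Adssl1, the muscle form of adenylosuccinate synthetase, fell by 0.75 ± 0.13 (SE). For Ahcy, Impdh2 and Pfas the edgeR adjusted p with the block was above 0.05 without mouse 1 and without mouse 2, at 0.064 to 0.18. The remaining purine genes, including Gart and Atic, which take up formyl groups, had log2 differences between -0.23 and 0.21.

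**Figure D5:**
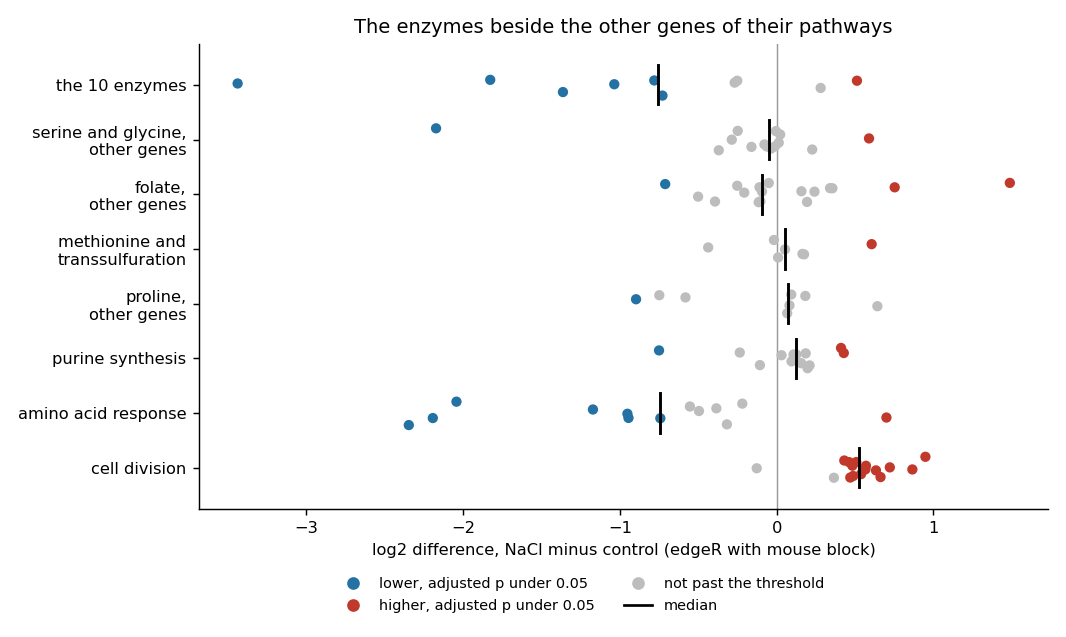
Log2 difference between NaCl and control with the mouse as a block (x axis) for the 10 enzymes, which were selected on this comparison, and for the genes of 7 other lists, with 1 point per gene, colour for genes past the threshold and a black bar for the median. The medians of the other pathway lists lie between -0.09 and 0.13, that of the amino acid response at -0.74 and that of cell division at 0.52.

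Genes of the amino acid response, which cells switch on through ATF4 when amino acids are scarce, were also measured. Of 13 tested, 5 were called lower without the block (0.176% of all genes) and 7 with it (4.3%), and 1 higher with it (Cebpb; 4.6%), with a median of -0.76 without the block. Asns, asparagine synthetase, fell from 110.0 ± 34.4 to 26.0 ± 2.60 CPM (SD, n = 3 each), a log2 difference of -2.09 ± 0.23 (SE; edgeR adjusted p = 0.0070). Trib3, a pseudokinase, had a log2 difference of -2.26, Chac1, which degrades glutathione, of -2.46 and Atf5, a transcription factor, of -1.18 (edgeR adjusted p between 0.019 and 0.038). Asns was no longer called without NaCl 2 or NaCl 3, and the other 3 not without control 2, control 3, NaCl 2 or NaCl 3 (edgeR adjusted p between 0.063 and 0.27). Chac1 also lost its call with all libraries thinned to the smallest (log2 difference -2.34, edgeR adjusted p = 0.086). TGATGNAA was in the upstream window of 4 of the 13 listed genes with such a window (Asns, Chac1, Nupr1 and Vldlr), against 3.45% of all windows. Nupr1 and Vldlr were not called in either fit. The part of this motif in the differences was not tested.

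Most cell division genes had positive differences. Of 16, 2 were called higher without the block (Plk1 and Ccnb1, which drive mitosis), where 0.478% of all genes were, and 14 with it, where 4.6% were, with a median of 0.55 without the block. The other 2, Pcna and Mcm2, which were named after their values were seen, had log2 differences of -0.11 ± 0.19 and 0.48 ± 0.37 (SE). Plk1 rose by 0.94 ± 0.15 and Ccnb1 by 0.86 ± 0.13 (SE; edgeR adjusted p of 0.034 and 0.028), and neither passed without control 2, control 3, NaCl 2 or NaCl 3, nor Ccnb1 without control 1. With the block, Top2a, a topoisomerase, rose by 0.72 ± 0.12 and Tk1, thymidine kinase, by 0.66 ± 0.13 (SE; edgeR adjusted p of 0.00017 and 0.00081). The part of cell division in the levels of the folate genes was not tested.

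The genes most like a member were those with the highest Pearson correlation of log2 CPM over the 6 libraries, among 9916 genes averaging 50 counts or more, and these values share the same libraries and groups. For Phgdh they were Cdc42se2 (r = 0.997), Ubac1, Eif4ebp1, Tbc1d1 and Arsb (r = 0.989), with log2 differences from -0.16 to -0.96. Phgdh separates the groups without overlap, so the negative sign follows from the way these genes were picked. For Shmt2, which differed more by mouse than by treatment, they included Cxcl14 (r = 0.994), Hyou1, Hnrnpm and Ptk2b (r = 0.991). For Mthfd1 they were Mcm7 (r = 0.998), a subunit of the replicative helicase, Dnmt1, the maintenance DNA methyltransferase, Zdhhc3, Nup85 and Faf1 (r = 0.996).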

How the data were processed

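RNA was measured in BMDMs of 3 mice, each as control and with 62 mM excess NaCl. Per the submitters' notes and the methods, the authors trimmed reads with fastp 0.20.0, aligned them with STAR 2.7.10b and deposited raw read counts for each gene. They also deposited a normalized signal, the count divided by a DESeq2 size factor for each library, which could be rebuilt from the raw counts and was used only to check the scale and for gene symbols. The build is named as mm10, with an annotation release made for another build, so genes are placed by chromosome only.

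Genes with a total of at least 10 counts were tested with edgeR 4.0.16 (TMM scaling, quasi-likelihood test, Benjamini-Hochberg adjustment over all 15903 genes, threshold 0.05). Libraries were taken as paired because the labels give the same mouse number in both groups, and deviations from the group means correlated at 0.43, 0.15 and 0.22 over genes for the same mouse and at -0.35 to 0.12 otherwise. The methods, which used DESeq2, name no term for the mouse, so the first edgeR fit had none, and the blocked fit, with mouse as a term, is given where it changed a call. DESeq2 1.42.0, other scalings and filters, thinning to 4088065 counts and leaving out libraries were the alternatives. The test was checked on simulated counts, with changes set only in genes of more counts than Aldh1l2 and Pycr1. Changes as small as those of Shmt2 or Mthfd1 were not simulated. Recovery by the fit without the block was required only where no differences between mice were simulated.

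The members and gene lists were chosen with earlier results of these data known. Every member is named, as are other pathway genes past the threshold in either fit (at most 6 a list), close relatives or partners of the members, the 4 genes with the lowest p with the block in each of the lists of amino acid response and cell division, the 5 genes most like each of Phgdh, Shmt2 and Mthfd1, and genes sharing sequence with a member. A few genes that this rule names are not reported here. Member IDs (10 of 10) were matched to GENCODE M21 transcripts for length and upstream sequences to RefSeq. Log2 values per library used a prior count of 2. Each library is from 1 mouse.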

Additional observations from a re-analysis of the deposited data

How the results depend on the processing

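Of the 10 enzymes, 1 was called lower in edgeR without the block, where 28 of 15903 genes were, and 6 with the replicate block (684). In DESeq2 4 were called lower (155 of all genes), and 5 with the replicate block (354). With a minimum total count of 1, 6 were (300 of 24752 genes), and 5 with thinned libraries and the block (474 of 13723). When a library or a mouse was left out, between 0 and 6 were, and between 0 and 661 of all genes. The number called higher was 0 and became 1 with the block, in DESeq2 with the block and with thinning and the block. Of all genes, 76 were called higher without the block, and 732, 452 and 597 in those settings. Leaving out each mouse in turn with the block also gave 1, where 469, 758 and 715 genes were called higher. Of the other pathway genes, 1 was called lower, and 4 with the block, 2 in DESeq2, 4 in DESeq2 with the block, 3 with a minimum of 1, 0 with thinned libraries, 3 with thinning and the block, and 0 to 5 without a library or mouse. Of them, 1 was called higher, and 6 with the block, 2 in DESeq2 and 3 in DESeq2 with the block. With a minimum of 1 it was 3, with thinned libraries 0, with thinning and the block 5, and 0 to 6 without a library or mouse. With thinned libraries, 15 of 13723 genes were called lower and 47 higher. Of all genes, 245 were called higher in DESeq2 and 362 of 24752 with a minimum of 1. Without a library or mouse, between 8 and 758 genes were called higher. Median-ratio size factors, total counts and filterByExpr left the numbers called at 1 and 0 for the enzymes and 1 and 1 for the others. Of all genes, 25, 20 and 24 were then called lower and 76, 67 and 76 higher. Without the block, Slc1a4, Folr1 and Chac1 lost their calls with thinned libraries. With the block, Aldh1l1 and Impdh2 lost theirs with thinned libraries (edgeR adjusted p of 0.11 and 0.054). Ahcy, Impdh2 and Pfas were not called in DESeq2 with the block (DESeq2 adjusted p of 0.070, 0.087 and 0.11). The cause was not tested.

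Of the 10 enzymes, 9 kept the sign of their log2 difference under all alternatives run, and Shmt1 turned to -0.01 without NaCl 2. Uncalled genes also changed sign. Pycrl went from 0.13 to -0.0070 with thinning and -0.037 with thinning and the block, and ranged from -0.25 (without NaCl 2) to 0.30 (without NaCl 1) when a library was left out, and was -0.20 without mouse 2. Gldc, at -0.08, ranged from -1.98 (without NaCl 2) to 0.36 (without NaCl 1). NaCl 3, with 4088065 counts, and the small counts of mouse 1 and mouse 2 limit what can be said of Aldh1l2 and Pycr1, which had 1 count each in NaCl 3.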
